A study of Mus musculus with 6 samples.

Results

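Immediate early response genes were followed by 10 members, Fos, Fosb, Jun, Junb, Atf3, Egr1, Nr4a1, Ier2, Zfp36 and Dusp1, each taken by its symbol from the 53445 loci of the deposited table, in which each symbol was listed once. Poly(A) RNA-Seq was performed on LSK cells (Lin-Sca+Kit+), the bone marrow fraction that holds stem and multipotent progenitor cells, from female mice of both genotypes, 3 OgaVav-Cre and 3 wildtype. All were C57BL/6 and about 12 weeks old. OgaVav-Cre mice are homozygous for a floxed allele of Oga, the enzyme that removes O-GlcNAc from proteins. They also carry the Vav-iCre transgene, whose Vav promoter drives recombination throughout the hematopoietic lineage. Each library came from 1 mouse and at least 20000 sorted cells, and the p-values below measure the spread between these 6 samples.

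Immediate early genes are transcribed within minutes of a stimulus, from promoters that are held ready by serum response factor, CREB and related factors, and their induction needs no new protein. Many encode transcription factors, and others encode phosphatases or RNA-binding proteins that end the response. The same genes are also known to be induced when tissue is dissociated and cells are sorted, so their spread between mice of one genotype is of interest beside any difference between genotypes.

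Library totals ranged from 25190298 to 27064389 reads on loci for OgaVav-Cre and from 19318056 to 21684561 for wildtype mice. Levels are given as CPM, the counts scaled to library size with edgeR's TMM factors, always in the order of replicates 1, 2 and 3. A floor of 3 reads equals 0.109 to 0.156 CPM, depending on the library. The table lists Oga as Mgea5, a symbol that occurs more than once. Its longest locus had 104 to 110 reads in the OgaVav-Cre and 2736 to 3164 reads in the wildtype libraries. Defining LSK markers were present in every library, with Kit between 251 and 602 CPM and Ly6a, which encodes Sca-1, between 42.3 and 218 CPM. Summed over 10 LSK markers the libraries held 2386, 2646 and 1477 CPM for OgaVav-Cre and 1819, 2724 and 2118 CPM for wildtype, and OgaVav-Cre replicate 3 was the lowest of the 6 libraries in 7 of the 10. The share of reads on the immunoglobulin loci Ighm, Igkc and Igj was between 1.17 and 9.88%.

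Promoters from RefSeq (GRCm38.p6) were found for 8 of the 10 genes, all but Egr1 and Ier2, as windows from 250 bases before to 50 bases after the start. Letters of motifs bound by the upstream factors were searched on both strands. The CArG box, the letters recognized by serum response factor, was present in 1.63% of 32851 promoters of this length and in 1 of the 8, Zfp36. The full cyclic AMP response element TGACGTCA was in 1.79% of promoters and in Dusp1 alone of the 8, and its first letters TGACG, which overlap it, were in 20.8% of promoters and in 6 of the 8. The AP-1 letters TGANTCA, recognized by the Fos and Jun proteins, were in 7.81% of promoters and in none of these windows, and the Egr letters GCGNGGGCG were in 5.55% of promoters and in Fosb, Zfp36 and Nr4a1. The TATA letters TATAAA were in 8.32% of promoters and in Fos and Junb. A match is a description of the letters and not evidence of binding. Sites outside the windows were not searched, so a motif missing from a window may still lie farther from the start. The 150 bases before the start are shown for 4 genes whose levels are compared below, because they differ in which motif they hold. They are written 5′ to 3′ on the strand of the gene, and capitals mark the CArG box in Zfp36, the TGACG letters and the TATA letters in Fos, the TGACG letters read from the other strand in Nr4a1, and the full cyclic AMP response element in Dusp1. Matches to the Egr letters are left in lower case. The stretches lie at chr7:28379229-28379378 on the minus strand for Zfp36, chr12:85473740-85473889 on the plus strand for Fos, chr15:101266696-101266845 on the plus strand for Nr4a1 and chr17:26508473-26508622 on the minus strand for Dusp1.
Zfp36: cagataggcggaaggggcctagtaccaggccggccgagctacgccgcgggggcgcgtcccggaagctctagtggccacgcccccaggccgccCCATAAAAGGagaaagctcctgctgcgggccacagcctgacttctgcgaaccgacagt
Fos: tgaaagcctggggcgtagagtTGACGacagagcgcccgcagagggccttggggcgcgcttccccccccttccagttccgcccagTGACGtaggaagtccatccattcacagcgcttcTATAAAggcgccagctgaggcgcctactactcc
Nr4a1: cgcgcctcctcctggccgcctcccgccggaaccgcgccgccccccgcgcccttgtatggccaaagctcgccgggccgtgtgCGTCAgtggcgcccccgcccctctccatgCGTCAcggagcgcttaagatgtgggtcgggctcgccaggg
Dusp1: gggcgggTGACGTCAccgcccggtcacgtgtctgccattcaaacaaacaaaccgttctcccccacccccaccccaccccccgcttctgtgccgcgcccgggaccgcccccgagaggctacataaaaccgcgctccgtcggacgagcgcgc
The capitals begin 58 bases before the start in Zfp36, 129, 66 and 33 bases before it in Fos, 69 and 40 bases before it in Nr4a1 and 143 bases before it in Dusp1.

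No immediate early gene passed the test between genotypes. Of the 10 genes, 9 had enough reads to be tested and 0 were called by edgeR's quasi-likelihood test at an adjusted p-value below 0.05 and a log2 fold change past 1 in either direction, a rule that called 0.0318% of the 22032 loci tested. DESeq2's Wald test, which called 0.493% of the loci it adjusted, also called 0 of them, as did limma-voom, which called 0.0227%. At an unadjusted p below 0.05, 1 of the 9 passed in edgeR, Ier2, beside 10.6% of all loci tested. The median log2 fold change of OgaVav-Cre over wildtype was 0.041 over the 9 genes and 0.0041 over all loci, with 5 genes above 0 and 4 below it.

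**Figure D1:**
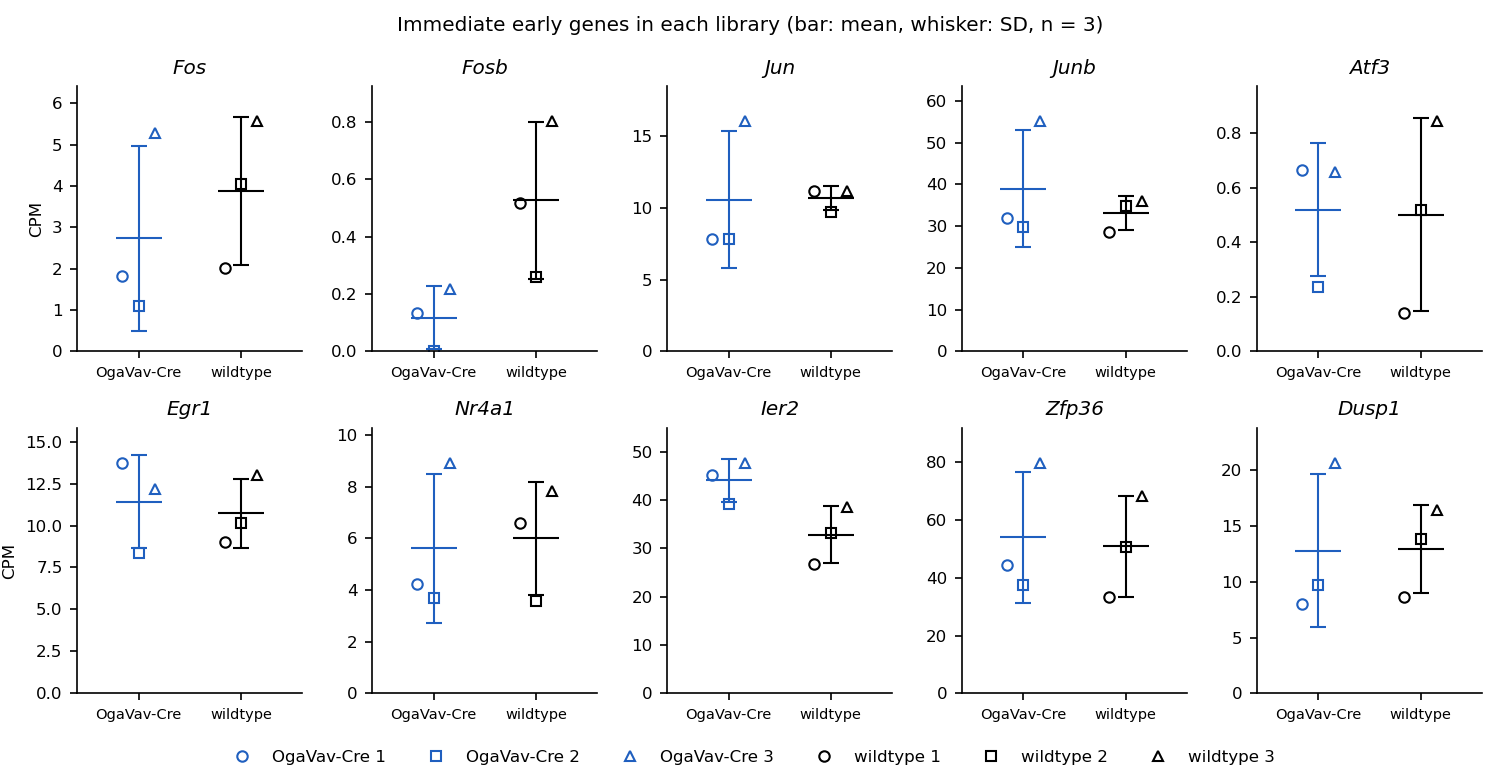
Each panel plots the CPM (linear axis from 0) of 1 immediate early gene in the 3 OgaVav-Cre (blue) and 3 wildtype (black) libraries, with the replicate number shown by the symbol, a bar for the mean and whiskers for the SD. Libraries of both genotypes overlap in 8 of the 10 panels, and are apart in Ier2 and Fosb, beside 17.5% of all loci tested whose genotypes do not overlap.

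The order of the levels was taken from RPKM, which the authors scaled by length, as means over all 6 libraries. Zfp36 at 18.6 ± 6.82 RPKM (SD, n = 6) and Junb at 17.4 ± 5.0 RPKM were highest, followed by Ier2 at 10.1 ± 1.91 RPKM. Dusp1 at 4.19 ± 1.72, Egr1 at 3.10 ± 0.591, Jun at 2.91 ± 0.903, Nr4a1 at 2.06 ± 0.869 and Fos at 1.24 ± 0.745 RPKM came next, and Atf3 at 0.224 ± 0.122 and Fosb at 0.0459 ± 0.0429 RPKM were lowest. The step to the next gene was larger than both SDs between Junb and Ier2, between Ier2 and Dusp1, between Fos and Atf3 and between Atf3 and Fosb, and smaller than the larger SD between all other neighbours.

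Fos and Fosb encode the partners that Jun proteins need to form the AP-1 transcription factor with high affinity for DNA. Fos lies at chr12:86814840-86818223 in mm9, on the plus strand, and the positions of the other genes are in the same build. Its level was 1.82, 1.11 and 5.29 CPM in the OgaVav-Cre libraries and 2.01, 4.05 and 5.58 CPM in the wildtype libraries, from 28 to 145 reads. In both genotypes replicate 3 was highest, with a 4.77-fold range between OgaVav-Cre mice, and the genotypes overlapped. The 95% Poisson intervals of OgaVav-Cre replicate 2 (0.736 to 1.6 CPM) and replicate 3 (4.46 to 6.23 CPM) did not meet, and such intervals, like the floor, cover counting error only. The edgeR log2 fold change of Fos was -0.50 with a standard error of 0.614, a 95% interval from -1.92 to 0.93 and a Benjamini-Hochberg adjusted p of 0.782. This value depended on single libraries, since without OgaVav-Cre replicate 3 it was -1.41 with an unadjusted edgeR p of 0.0256 and an adjusted p of 0.301. It was -0.27 without OgaVav-Cre replicate 1, -0.12 without OgaVav-Cre replicate 2, -0.81 without wildtype replicate 1 and -0.14 without wildtype replicate 3. Fosb, found at chr7:19888045-19895394 (minus strand), had the fewest reads of the 10 genes. Its reads numbered 3, 0 and 6 in the OgaVav-Cre libraries and 11, 5 and 19 in the wildtype libraries. The OgaVav-Cre levels of 0.133, 0 and 0.219 CPM all lay below the wildtype levels of 0.515, 0.259 and 0.804 CPM, an order that 9.97% of the loci tested shared, and 2 of the 3 OgaVav-Cre libraries were at or under the floor. Fosb did not pass the filter on low counts. Without that filter its edgeR log2 fold change was -2.10 (unadjusted p = 0.0634, adjusted p = 0.651). With the filter, Fosb was tested in 4 of the fits with 1 library left out. There the log2 fold change was between -2.95 and -1.54, with unadjusted edgeR p from 0.0380 to 0.111 and adjusted p from 0.328 to 0.738. The unadjusted p was below 0.05 in 1 of these 4, the one without OgaVav-Cre replicate 3.

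Jun and Junb encode the other arm of AP-1, and Junb is known for restraining myeloid expansion from stem cells. The OgaVav-Cre libraries held 7.85, 7.80 and 16.1 CPM of Jun, a gene of 1 exon at chr4:94715725-94718913 (minus strand), and the wildtype libraries 11.2, 9.70 and 11.1 CPM. OgaVav-Cre replicate 3 stood above the other 5 libraries, and the remaining OgaVav-Cre libraries were below every wildtype library. The means were nevertheless close, at 10.6 ± 4.75 for OgaVav-Cre and 10.7 ± 0.831 CPM for wildtype (SD, n = 3 each), and the log2 fold change of -0.012 had a standard error of 0.305 (edgeR adjusted p = 0.992). It was -0.44 (adjusted p = 0.375) without OgaVav-Cre replicate 3. For Junb, also of 1 exon, at chr8:87500811-87502617 (minus strand), the levels were 31.9, 29.8 and 55.3 CPM in OgaVav-Cre mice and 28.5, 34.9 and 36.1 CPM in wildtype mice. OgaVav-Cre replicate 3 was again highest, and the other 5 libraries lay within 28.5 to 36.1 CPM. The log2 fold change of Junb was 0.23, its standard error 0.248 and its edgeR adjusted p 0.745. Junb lies wholly within a listed Junb/Prdx2 locus of the same strand, which had between 1500 and 2707 reads, and how reads were shared between them is not given. Jun shares 689 bases with the opposite-strand locus BC042782, which had 4 to 31 reads.

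Atf3 encodes a stress-induced factor of the ATF/CREB family that can pair with Jun proteins. Located at chr1:192994175-193007219 (minus strand), it reached 0.665, 0.237 and 0.657 CPM among OgaVav-Cre and 0.141, 0.519 and 0.846 CPM among wildtype libraries, from 3 to 20 reads. Both the lowest and the highest library were wildtype, the lowest being at the floor. The log2 fold change of 0.041 had a 95% interval from -1.63 to 1.72 (adjusted p = 0.987 from edgeR), so that at this depth a log2 fold change of 1 in either direction lay within the interval.

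Egr1 and Nr4a1 encode transcription factors that act outside AP-1, a zinc finger protein and an orphan nuclear receptor, and both are known for holding hematopoietic stem cells in quiescence. Egr1 is at chr18:35020861-35024638 (plus strand). The OgaVav-Cre libraries gave 13.7, 8.35 and 12.1 CPM and the wildtype libraries 9.0, 10.2 and 13.0 CPM. Both the highest and the lowest library were OgaVav-Cre, and the log2 fold change of 0.090 had a 95% interval from -0.48 to 0.66 (edgeR adjusted p = 0.913). Nr4a1, at chr15:101097277-101105226 (plus strand), gave 4.26, 3.68 and 8.94 CPM in the OgaVav-Cre libraries and 6.61, 3.58 and 7.83 CPM in the wildtype libraries. Replicate 3 was highest and replicate 2 lowest in both genotypes. The log2 fold change of Nr4a1 was -0.094, with a standard error of 0.424 and an edgeR adjusted p of 0.950. Without OgaVav-Cre replicate 3 it was -0.60 (adjusted p = 0.485).

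Ier2 is a small nuclear protein gene of the same early wave, and it was the one tested gene whose genotypes did not overlap. Reads on this gene of 1 exon, at chr8:87183450-87186751 (minus strand), amounted to 45.2, 39.2 and 47.7 CPM for the OgaVav-Cre and 26.8, 33.1 and 38.5 CPM for the wildtype libraries. The lowest OgaVav-Cre library lay just above the highest wildtype library. Of all loci tested, 17.5% did not overlap between genotypes, 7.5% with OgaVav-Cre higher. The means of 44.0 ± 4.39 and 32.8 ± 5.88 CPM (SD, n = 3 each) differed by a log2 fold change of 0.43 in edgeR (95% interval 0.041 to 0.81, unadjusted p = 0.0341), which failed the correction at an adjusted p of 0.446. For a single gene 3 mice against 3 cannot give less than p = 0.1 in a two-sided exact permutation test. Across the 18 alternative analyses the log2 fold change of Ier2 stayed between 0.30 and 0.56, with adjusted p between 0.368 and 0.862. The unadjusted p was between 0.016 and 0.144 and was below 0.05 in 10 of the 18, but in 2 of the 6 with 1 library left out, and it was 0.144 with total counts alone.

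Zfp36 and Dusp1 end the response: Zfp36 (tristetraprolin) binds AU-rich transcripts and speeds their decay, and Dusp1 is a phosphatase that inactivates MAP kinases. Zfp36 stood at 44.4, 37.7 and 79.9 CPM in the OgaVav-Cre libraries and 33.5, 50.8 and 68.4 CPM in the wildtype libraries. Replicate 3 was highest in both genotypes, 2.12-fold above the lowest OgaVav-Cre and 2.04-fold above the lowest wildtype library, while the log2 fold change was 0.085, with a standard error of 0.337 and an edgeR adjusted p of 0.943. Zfp36, at chr7:29161803-29164274 (minus strand), lies wholly within the opposite-strand locus AK158286, and its read numbers (1001, 952 and 2189 for OgaVav-Cre, 715, 980 and 1616 for wildtype) were nearly those of that locus (1006, 955 and 2209, and 725, 986 and 1620). If strand was not used in counting, reads of the pair cannot be told apart. Dusp1 maps to chr17:26642535-26645464 (minus strand), with 8.03, 9.70 and 20.7 CPM in the OgaVav-Cre libraries and 8.67, 13.8 and 16.4 CPM in the wildtype libraries. The same replicate was lowest and the same highest in both genotypes, and the means were 12.8 ± 6.88 and 13.0 ± 3.94 CPM (SD, n = 3 each). Its log2 fold change was -0.016, with an edgeR adjusted p of 0.991. Without OgaVav-Cre replicate 3 it was -0.55 (adjusted p = 0.436).

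**Figure D2:**
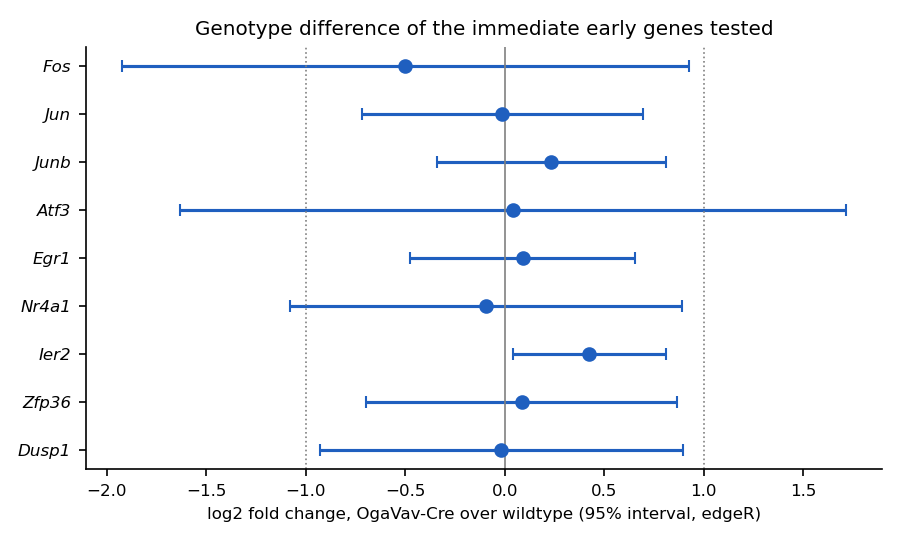
Points are log2 fold changes (OgaVav-Cre over wildtype) and bars their 95% intervals from edgeR for the 9 immediate early genes tested; dotted lines mark a log2 fold change of 1 in either direction. Every interval except that of Ier2 (0.041 to 0.81) includes 0, and those of Fos, Atf3 and Nr4a1 reach past a log2 fold change of 1 in at least 1 direction.

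The spread between mice of one genotype was larger for these genes than for most loci. The SD of log2 CPM within genotypes, pooled over both, had a median of 0.54 over the 9 genes, against 0.29 over all loci tested and 0.25 over the 18994 loci with a mean of at least 1 CPM. It was 0.94 for Fos, 0.89 for Atf3, 0.63 for Nr4a1, 0.61 for Dusp1, 0.54 for Zfp36, 0.43 for Jun, 0.37 for Junb, 0.32 for Egr1 and 0.21 for Ier2. Of the 9 genes, 8 were above the median of 0.25, among them Atf3, whose own mean was only 0.51 CPM. Egr1 and Junb lay at percentiles 63.4 and 69.3 of the loci with a mean of at least 1 CPM. A wide spread was not particular to these genes. Among the marker lists described below, the median pooled SD was larger for LT-HSC, myeloid, B and plasma cell, and T and NK cell markers. It was also larger for erythroid and megakaryocyte markers. These medians ran from 0.65 (erythroid and megakaryocyte) to 1.23 (B and plasma cell). The median was smaller for LSK markers and for stromal and endothelial markers. The difference between genotype means was smaller than the pooled SD in 8 of the 9 genes, all but Ier2, and in 58.1% of all loci. The share of the variance of log2 CPM lying between genotypes had a median of 1.86% over the 9 genes, against 19.9% over all loci. It was 61.1% for Ier2 and 15.98% for Fos, the latter below the median of all loci. With so few libraries this share is above 0 by sampling alone, and it was not corrected for that. The 19.9% is therefore a baseline for comparison and does not by itself measure an effect of genotype. The SD was larger in OgaVav-Cre than in wildtype mice for 7 of the 9 genes and for 51.4% of all loci. It was also larger for 67.2% of the wider set of immediate early genes and 73.5% of the upstream genes, both described below. For the heat shock genes this share was 23.1%, and among the marker lists it ran from 70% (LSK) to 100% (B and plasma cell).

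**Figure D3:**
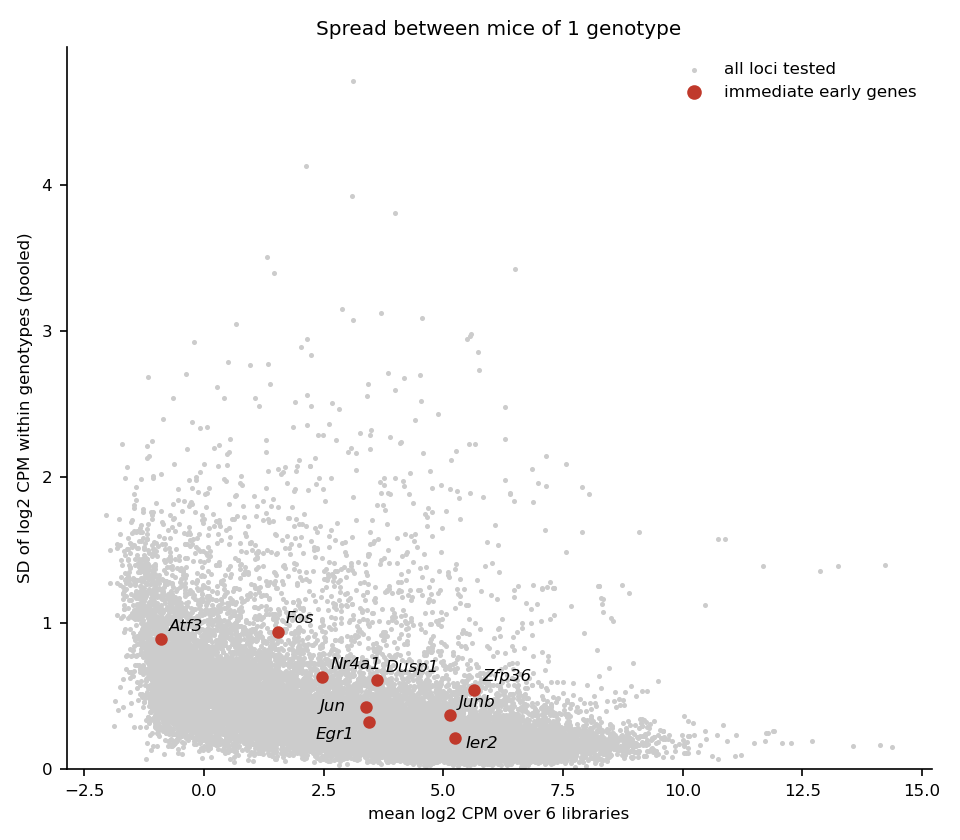
Each grey point is 1 of the 22032 loci tested, with its mean log2 CPM over the 6 libraries on the horizontal axis and the SD of log2 CPM within genotypes, pooled over both, on the vertical axis; red points are the 9 immediate early genes. The genes lie between 0.21 (Ier2) and 0.94 (Fos).

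The replicate 3 libraries were the highest of their genotype in most of these genes. OgaVav-Cre replicate 3 was the highest of its genotype in 7 of the 9 genes (35.6% of all loci) and wildtype replicate 3 in 8 of the 9 (31.9% of all loci). Both held in 6 of the 9, Fos, Junb, Ier2, Zfp36, Nr4a1 and Dusp1, and in 15.9% of all loci. The mean of log2 CPM over the 9 genes, each centred on its mean over the 6 libraries, was -0.13, -0.47 and 0.59 in the OgaVav-Cre libraries and -0.38, -0.0084 and 0.40 in the wildtype libraries. Summed over all 10 genes, these libraries held 158, 138 and 247 CPM and 127, 161 and 199 CPM. Without both replicate 3 libraries, an analysis chosen after seeing the data, the median SD was 0.36 for the 9 genes and 0.25 for all loci, and again 0 of the genes were called by edgeR. The labels give no day of sorting or sequencing, so whether the replicate 3 libraries were handled apart from the others was not tested.

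The wider set of immediate early genes also held no gene that passed the test. Of 62 genes listed from general knowledge, 58 were tested, 0 were called by edgeR, DESeq2 or limma-voom and 3 had an unadjusted p below 0.05 in edgeR, beside 10.6% of all loci, with 28 above 0, 30 below it and a median log2 fold change of -0.0060. That count depended on single libraries, with 13 of 58 without OgaVav-Cre replicate 3 (3226 of 22584 loci), 8 of 58 without OgaVav-Cre replicate 2 (1745 of 22752 loci), 6 of 59 without wildtype replicate 1 (3385 of 23284 loci) and 2 without OgaVav-Cre replicate 1 or wildtype replicate 3, and 0 were called in each. Ier5, a relative of Ier2, gave 62.7, 46.9 and 93.3 CPM in the OgaVav-Cre libraries and 38.5, 32.6 and 41.0 CPM in the wildtype libraries, without overlap (7.5% of loci in this direction), and its edgeR log2 fold change was 0.86 (unadjusted p = 0.00836, adjusted p = 0.412). For Trib1, a pseudokinase that directs C/EBP factors to degradation, it was 0.65 (adjusted p = 0.428). Pim1, a survival kinase induced by cytokines, had the opposite sign, with a log2 fold change of -0.69 (edgeR unadjusted p = 0.0125, adjusted p = 0.412). Its genotypes did not overlap (9.97% of loci in this direction). Jund, the third Jun gene, had the next smallest p and a log2 fold change of 0.50 (adjusted p = 0.529), and the genes with the highest mean CPM, Zfp36l2 and Mcl1, were at 0.031 and 0.068 (adjusted p = 0.955 and 0.900). Replicate 3 was highest in both genotypes in 22 of the 58 genes, 37.9%, and the median pooled SD was 0.40. Klf2 and Egr3, named after their values were seen, were among them. Klf2, a quiescence factor of lymphocytes, gave 12.9, 16.03 and 92.8 CPM for OgaVav-Cre and 23.3, 7.78 and 53.9 CPM for wildtype mice. Egr3, a relative of Egr1, gave 0.709, 1.23 and 8.76 CPM and 4.17, 1.76 and 7.40 CPM.

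The genes upstream of the response had a smaller spread within genotypes, with a median pooled SD of 0.16. It was 0.29 over all loci and 0.25 over the loci with a mean of at least 1 CPM. Of 34 kinases, coactivators and transcription factors of the MAP kinase, serum response factor and CREB pathways, 34 were tested and 0 were called by edgeR. An unadjusted p below 0.05 in edgeR was reached by 0, beside 10.6% of all loci tested, and by 0 to 2 with 1 library left out. The smallest was 0.0553 for the coactivator Crebbp at a log2 fold change of -0.30. The kinases with the next smallest p, Braf, Rps6ka4 and Map2k2, were at -0.26, 0.38 and 0.28. DESeq2 and limma-voom also called 0. Mapk14, among the most abundant by CPM, had a log2 fold change of -0.020 (edgeR adjusted p = 0.962). Of 15 heat shock genes known to move with warming and handling of cells, 13 were tested, 0 were called by edgeR, DESeq2 or limma-voom and 2 had an unadjusted p below 0.05 in edgeR, beside 10.6% of all loci. Dnajb4, a co-chaperone, gave 23.5, 24.9 and 21.3 CPM for OgaVav-Cre and 29.5, 36.1 and 36.9 CPM for wildtype mice, without overlap (9.97% of loci in this direction), at a log2 fold change of -0.56 (unadjusted p = 0.00568, adjusted p = 0.401). Hspa1b, an inducible HSP70, gave 0.665, 1.03 and 1.17 CPM and 3.42, 3.58 and 1.01 CPM, at a log2 fold change of -1.47 (unadjusted p = 0.0244, adjusted p = 0.432). The next smallest p belonged to Hsph1 and Hspd1, at log2 fold changes of -0.56 and 0.26, and the most abundant of these genes, Hsp90ab1 and Hspa5, were at 0.22 and 0.20 (adjusted p from 0.531 to 0.731). Replicate 3 was highest in both genotypes in 0 of the 13 heat shock genes, and their mean centred log2 CPM was -0.066, -0.043 and -0.075 in the OgaVav-Cre libraries and 0.31, 0.0070 and -0.13 in the wildtype libraries. Wildtype replicate 1 was the highest of all 6 libraries in 6 of the 13 genes and the lowest in 0.

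**Figure D4:**
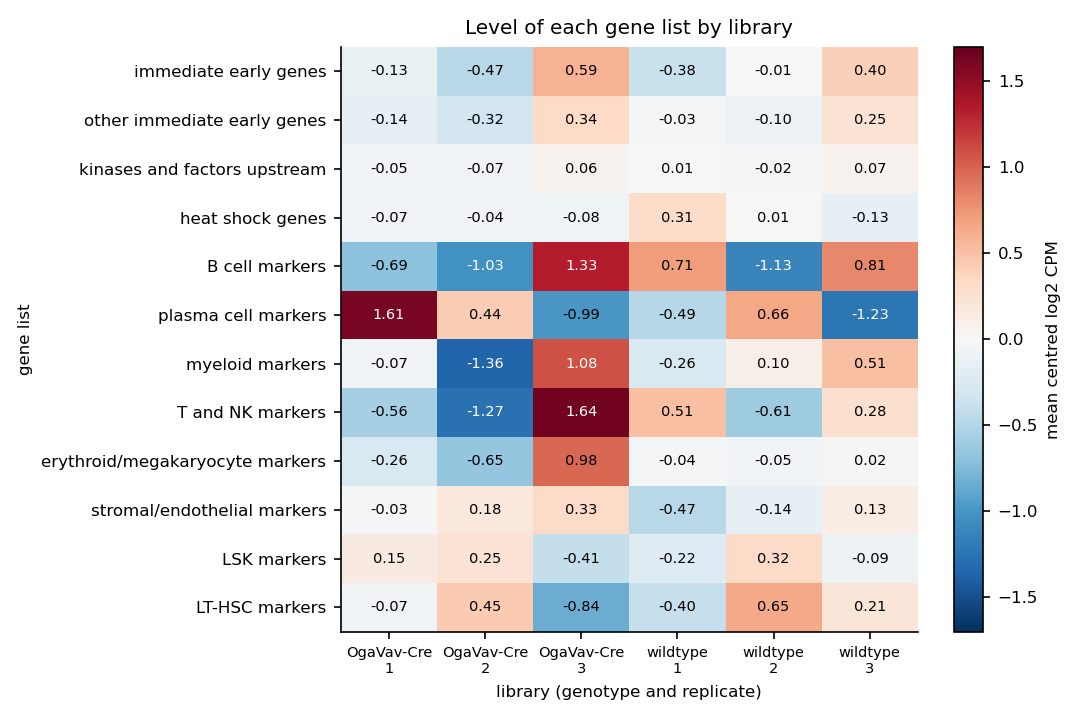
Each cell gives the mean over a gene list of log2 CPM centred on each gene's mean over the 6 libraries, with libraries in columns (genotype and replicate) and red above, blue below the mean. The immediate early genes are highest in both replicate 3 libraries (0.59 and 0.40), as are B cell markers (1.33 and 0.81) and myeloid markers (1.08 and 0.51). Replicate 3 is also highest within each genotype for erythroid and megakaryocyte markers (0.98 and 0.019) and stromal and endothelial markers (0.33 and 0.13). The same holds for the other immediate early genes (0.34 and 0.25) and the upstream genes (0.058 and 0.065). T and NK markers are highest in OgaVav-Cre replicate 3 (1.64) and wildtype replicate 1 (0.51), plasma cell markers are low in both replicate 3 libraries (-0.99 and -1.23), and heat shock genes are highest in wildtype replicate 1 (0.31).

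Marker lists of other cell types differed between libraries, and not in the same order in every list. Whether their reads came from such cells left after the sort or from LSK cells themselves was not tested. B cell, myeloid, and erythroid and megakaryocyte markers were highest by sum in replicate 3 of both genotypes. So were stromal and endothelial markers, but narrowly, at 126 against 125 CPM in OgaVav-Cre and 109 against 108 CPM in wildtype mice. T and NK cell markers were highest in OgaVav-Cre replicate 3 and wildtype replicate 1, and plasma cell markers were lowest in both replicate 3 libraries. B and plasma cell markers were 1 list of 14 genes and were separated because their genes differed, a choice made after seeing the values, and the whole list was at a mean centred log2 CPM of 0.34 in OgaVav-Cre and -0.062 in wildtype replicate 3. The 8 B cell markers were all highest in replicate 3 among OgaVav-Cre libraries and 5 of them among wildtype libraries, and their sum was 338, 259 and 1255 CPM for OgaVav-Cre and 838, 243 and 867 CPM for wildtype mice. The 16 myeloid markers, of which 9 were highest in replicate 3 in both genotypes, summed to 1698, 773 and 3275 CPM and to 1370, 1705 and 2012 CPM. The 10 T and NK cell markers summed to 78.4, 66.4 and 198 CPM and to 124, 64.3 and 82.1 CPM, and 4 of them were highest in replicate 3 in both genotypes. The 12 erythroid and megakaryocyte markers summed to 886, 374 and 2616 CPM and to 789, 586 and 875 CPM, and 3 of them were highest in replicate 3 in both genotypes. No marker of these 4 cell types was at 0 in any library. The 12 LT-HSC markers summed to 583, 797 and 305 CPM and to 457, 1042 and 738 CPM, lowest in OgaVav-Cre replicate 3. The 6 plasma cell markers summed to between 1460 and 11004 CPM. The 11 stromal and endothelial markers summed to between 82.1 and 126 CPM, with 1 of them at 0 in at least 1 library. Of 83 marker genes tested, 0 were called by edgeR, DESeq2 or limma-voom. An unadjusted p below 0.05 in edgeR was reached by 3 (Cd4, Ncr1 and Cxcl12), beside 10.6% of all loci tested. The part of these cells in the levels of the immediate early genes was not tested, and in bulk RNA fewer cells of a type and less RNA per cell cannot be told apart.

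The profile over the 6 libraries nearest to the mean of the 9 genes was that of Nhsl2, at a root mean square difference of 0.071 in centred log2 CPM, followed by Phf1 at 0.076, Dgat1 at 0.097, Fgd2 at 0.098 and Samhd1 at 0.10, out of 18984 loci. Among the 9 genes themselves Zfp36 was nearest to their mean profile at 0.096, with 2 loci nearer, followed by Junb at 0.18 and Dusp1 at 0.23, and Fos was farthest at 0.51.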

How the data were processed

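LSK cells of 3 OgaVav-Cre and 3 wildtype mice were profiled by poly(A) RNA-Seq. Per the authors' methods, 50 bp reads from 1 end were aligned to mm9 and analyzed with Genomatix. The submitters' processing notes name CASAVA 1.8.2. Aligner version, annotation and use of strand are not given in the sources used here. The deposited counts are raw reads per locus, and the deposited RPKM were made from them by the authors. The authors' fold changes, p-values and normalized expression in the same table were not used.

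Genotypes were compared with edgeR 4.0.16 in R 4.3.3 (TMM, filterByExpr by genotype, glmQLFit and glmQLFTest, no covariate, Benjamini-Hochberg adjustment over all loci tested). Centred log2 CPM used a prior count of 2. A simulation with 200 changed loci served as a check of the tests. Alternatives were RLE size factors, total counts alone, no filter, at least 10 reads in every library, summed loci of one symbol, DESeq2 1.42.0, limma-voom and limma-trend on log2 RPKM with a pseudocount of 0.1 or 1 (limma 3.58.1), the replicate number as a block and each library left out. After seeing the data, 2 were added: leaving out both replicate 3 libraries, and the immunoglobulin share as a covariate.

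The genes and the 10 other lists were chosen with earlier results of these data known. Named are all 10 genes, in other lists up to 4 genes with the smallest p and the 2 with the highest mean CPM, the 5 nearest profiles, Mgea5, and markers that move with a result. Some genes this rule names are not reported here. Python 3.11.15 with matplotlib 3.10.9, scipy 1.17.1, pandas 2.3.3 and numpy 2.4.6 was used for descriptions and plots. Promoters came from RefSeq.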

Additional observations from a re-analysis of the deposited data

How the results depend on the processing

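The number of immediate early genes called was 0 in all 18 alternatives. Of 166 log2 fold changes of single genes, 33 in 7 genes changed sign, and none was called. With total counts alone, which moved the median log2 fold change of all loci from 0.0041 to -0.11, Atf3 was at -0.093, Egr1 at -0.041 and Zfp36 at -0.026. With RLE size factors Jun was at 0.0044, and with DESeq2 Dusp1 was at 0.0018 and Jun at 0.0058. On log2 RPKM Zfp36 was at -0.0024 with a pseudocount of 0.1, and with a pseudocount of 1 it was at -0.0015 and Atf3 at -0.00067. Of the settings chosen after seeing the data, the immunoglobulin share as a covariate gave 0.12 for Dusp1, 0.14 for Jun and 0.18 for Nr4a1, and leaving out both replicate 3 libraries gave -0.039 for Junb and -0.040 for Zfp36 and moved the median spread from 0.54 to 0.36. With 1 library left out the log2 fold changes ranged from -0.39 to 0.66 for Atf3, -0.55 to 0.23 for Dusp1, -0.063 to 0.27 for Egr1, -0.44 to 0.17 for Jun, -0.10 to 0.40 for Junb, -0.60 to 0.14 for Nr4a1 and -0.31 to 0.36 for Zfp36, and the median spread from 0.40 to 0.59. The cause was not tested.

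Over all loci 7 were called in the full analysis, 21 without the filter, 4 with at least 10 reads in every library, 4 on log2 RPKM with a pseudocount of 1, 115 by DESeq2, 3 to 9 with 1 library left out and 4 without both replicate 3 libraries. The labels do not say whether the replicate numbers pair the samples. Deviations of same-numbered libraries from their genotype means correlated at -0.081, 0.26 and 0.32 for replicates 1, 2 and 3. OgaVav-Cre replicates 2 and 3 correlated best with the wildtype library of the same number. OgaVav-Cre replicate 1 correlated best with wildtype replicate 2 (0.21). Whether the samples are paired was not tested. With the replicate number as a block, 6 loci and 0 of the immediate early genes were called. The block moved the number of the wider set of immediate early genes at an unadjusted p below 0.05 from 3 to 9, and of all loci from 2346 to 2724. Reads limit Fosb (0 to 19) and Atf3 (3 to 20) most.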
